A study of Mus musculus with 13 samples.

Results

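RNA of whole testes from adult mice was compared between the 3 Wfdc15a knockout libraries whose titles carry the number 1 (KO1) and all 7 control libraries, 10 of the 13 libraries sequenced in the series. The labels give genotype and title number, and this knockout group was singled out because its Wfdc15a RNA was known to be reduced. The controls are 3 wild-type libraries (WT, title number 2), 1 heterozygous library of title number 1 and 3 heterozygous libraries of title number 2 (Het), which the design text counts as separate mice and pools as 1 control group. The other 3 knockout libraries carry the title number 2 (KO2, replicates 4 to 6) and serve here only to show where KO1 differs. All mice were 15 weeks old. The testes were stripped of their capsule, and roughly 2 ng of RNA from each sample went through Smart-seq2, a method for very small RNA inputs, with 11 cycles of PCR. The sources used here do not say what the title number stands for, how the knockout allele was made, or which mice shared a litter or batch. The study asked what the gene does in spermatogenesis, and its title names proteases and immune balance.

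Wfdc15a belongs to the family of whey acidic protein four-disulfide core proteins, small secreted proteins of which several inhibit proteases and act in innate immunity. In the adult testis, spermatogonia enter meiosis as spermatocytes, become round spermatids and then elongating spermatids, which pack their DNA with transition proteins and protamines. Sertoli cells hold the germ cells and seal them behind the blood-testis barrier. Leydig cells between the tubules make testosterone, and resident macrophages keep inflammation low in an organ that tolerates germ cell antigens.

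Wfdc15a itself read 31.5, 19.4 and 33.4 RPM (reads of a gene, scaled for library size) in KO1 replicates 1 to 3. The WT libraries read 85.8, 57.5 and 53.5 RPM and the Het libraries 55.9, 78.1, 58.2 and 69.6 RPM, so every KO1 library lay below every control. The mean was 28.1 ± 7.597 RPM (SD, n = 3) in KO1 and 65.5 ± 12.5 RPM (SD, n = 7) in controls. These libraries were set apart with that reduction known, so the level is a description and carries no test. Transcripts of the gene (chr2:164198863-164200130, minus strand, mm10) were reduced and not absent, with at least 156 reads in each of the 13 libraries. The libraries labelled KO2 read 54.1, 48.1 and 81.3 RPM, of which the first and the last lie within the control range. Whether the counted reads cover the altered part of the gene is not known.

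The libraries held 4.22 to 10.1 M reads in listed genes, and KO1 replicates 1 to 3 held 6.67, 7.57 and 5.72 M. On the first principal component of all 13 libraries (31.1% of the variance) KO1 lay at 37.9 to 48.3, KO2 at 15.7 to 25.9 and the controls at -39.3 to -11.9. WT replicates 2 and 3 were the controls nearest to the knockouts. The second component (9.9%) set the libraries of title number 1 apart from the others, and also KO2 apart from the controls of its own title number. Het replicate 1 lay at -31.5 and KO1 at -22.8 to -16.2, against 25.1 to 27.0 for KO2 and -3.4 to 5.2 for the other controls. Het replicate 1 is the only control of title number 1, so a difference between KO1 and the controls cannot be fully told apart from a difference between title numbers. Counts from a fit with title number as a term are therefore given beside the gene lists, and some values of that library beside single genes.

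**Figure D1:**
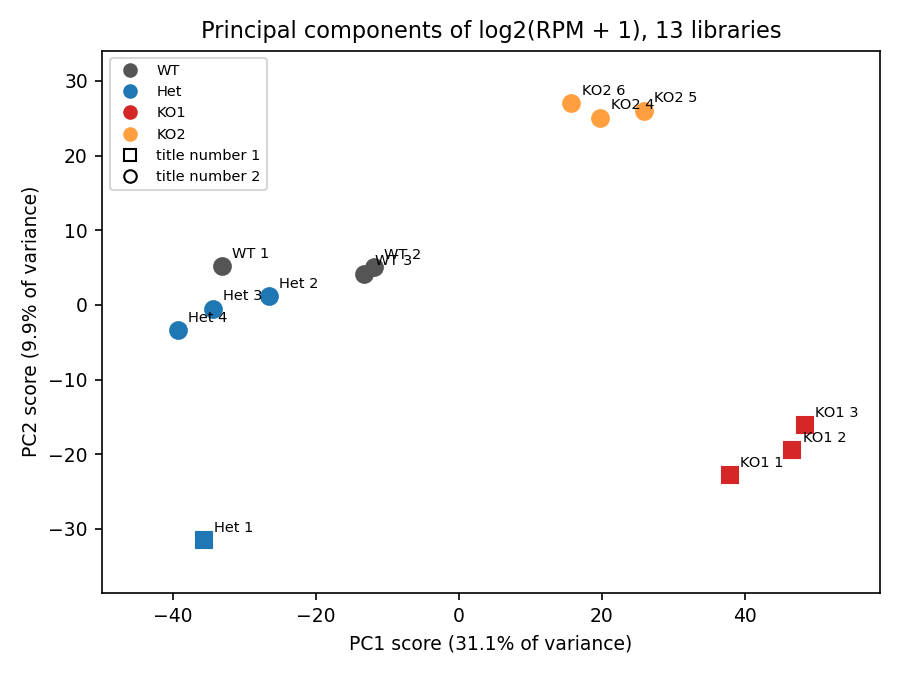
Scores of the 13 libraries on the first 2 principal components of log2(RPM + 1), PC1 horizontally and PC2 vertically, coloured by group and with squares for title number 1. The 3 KO1 libraries lie to the right (37.9 to 48.3 on PC1), and Het replicate 1, a control of the same title number, lies lowest on PC2 (-31.5).

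Of 16235 genes whose mean reached 1 RPM over the libraries, 2674 were higher in KO1 (16.5%) and 927 were lower (5.71%), at an adjusted p under 0.05 in limma. All 3 KO1 values lay above all 7 control values for 2385 genes (14.7%) and below them for 873 (5.38%). The excess of rises depended on the scaling. The median log2 difference over all tested genes was 0.15, and when the libraries were scaled by median-of-ratios factors it was 0.01, with 1779 genes higher (11.0%) and 1738 lower (10.7%). With title number as a term, 1010 genes were higher (6.22%) and 190 lower (1.17%); the KO1 difference then rests on Het replicate 1 as the only control of its number. Against the same controls, 1176 genes were higher (7.24%) and 762 lower (4.69%) in KO2. Leaving out KO1 replicate 3 gave 1602 higher and 579 lower genes. Leaving out KO1 replicate 2 gave 1755 higher genes. Of the genes named below as rising or falling, 24 did not pass with title number as a term. These were C4a, Cd163, Cd3d, Csf1, Cst13, Ctsl, Cyp26b1, Cyp2a12, Dmc1, Gdf9, Gpx4, Masp1, Mfap5, Myl9, Nmur1, Olfr733, Pdpn, Postn, Prss55, Stra8, Trem2, Tsc22d1, Wfdc9 and Wfdc10.

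Complement genes rose with the highest median of all lists examined. Of 23 tested genes of the complement list, 16 rose and none fell, with a median log2 difference of 1.53, and 15 lay above all controls. With title number as a term 9 rose and none fell. In KO2, 4 of the 23 rose and 1 fell. Complement is a cascade of plasma proteins that marks cells and microbes for clearance, and the list spans its starting proteins, its central proteins, its end products and its inhibitors.

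Among the starting proteins, the 3 chains of C1q all rose. C1qa, which macrophages make, read 13.7, 29.8 and 20.3 RPM in KO1 against 4.54 to 7.56 RPM (median 5.75) in controls, a log2 difference of 1.66 ± 0.26 (SE), adjusted p = 0.00022. Masp1, a protease of the lectin pathway, read 30.4, 24.7 and 17.5 RPM against 0 to 7.297 RPM (median 3.03). Its log2 difference was 2.80 ± 0.51 (SE), adjusted p = 0.00082. The KO2 libraries read 9.97, 16.5 and 11.9 RPM and lay between the groups.

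C4b, the central protein cut by the C1 protease, showed the largest log2 difference of the list. It read 112, 134 and 99.9 RPM in KO1 against 10.1 to 18.1 RPM (median 13.1) in controls, and the KO2 libraries read 14.4, 35.8 and 18.2 RPM. The means were 115 ± 17.1 RPM (SD, n = 3) and 13.3 ± 2.49 RPM (SD, n = 7), a rise of 8.19-fold on the scale of RPM + 1, with a log2 difference of 3.03 ± 0.18 (SE), adjusted p = 1.8e-08. Het replicate 1 held the lowest control value (10.1 RPM), and with title number as a term the log2 difference was 3.38 (adjusted p = 4.8e-05). KO1 exceeded KO2 as well, by a log2 difference of 2.38 ± 0.26 (SE), adjusted p = 0.0001. C4a, a near-identical neighbour whose reads the counting may have shared, rose from 0.449 to 3.35 RPM to 6.87, 11.6 and 8.18 RPM.

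C3, on which all complement routes meet, read 28.02, 58.03 and 60.2 RPM in KO1 against 1.26 to 13.7 RPM (median 6.68) in controls. The groups did not overlap, and the log2 difference was 2.93 ± 0.50 (SE), adjusted p = 0.00054. The KO2 libraries read 6.43, 28.2 and 18.9 RPM. C7, part of the pore that ends the cascade, read 133, 156 and 131 RPM against 38.05 to 49.01 RPM (median 41.6), and 67.1, 61.9 and 57.96 RPM in KO2. Its log2 difference from controls was 1.70 ± 0.12 (SE), adjusted p = 2.6e-07, and it exceeded KO2 by 1.15 ± 0.14 (SE), adjusted p = 0.00054.

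Inhibitors of the cascade were split. Serping1, the inhibitor of the C1 protease, read 83.2, 134 and 127 RPM in KO1 against 23.5 to 51.1 RPM (median 28.9) in controls, and rose by a log2 difference of 1.83 ± 0.20 (SE), adjusted p = 1.4e-05. It also exceeded KO2 (log2 difference 1.28 ± 0.24, adjusted p = 0.024). Clu, an abundant Sertoli cell product that binds the end products, read 3310.4, 3037 and 3351 RPM against 1158 to 1978 RPM (median 1222), a log2 difference of 1.24 ± 0.14 (SE), adjusted p = 2.5e-05. The membrane-bound regulators Cd55, Cd59a and Cd59b did not pass the test, with log2 differences of -0.28, 0.38 and -0.25.

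**Figure D2:**
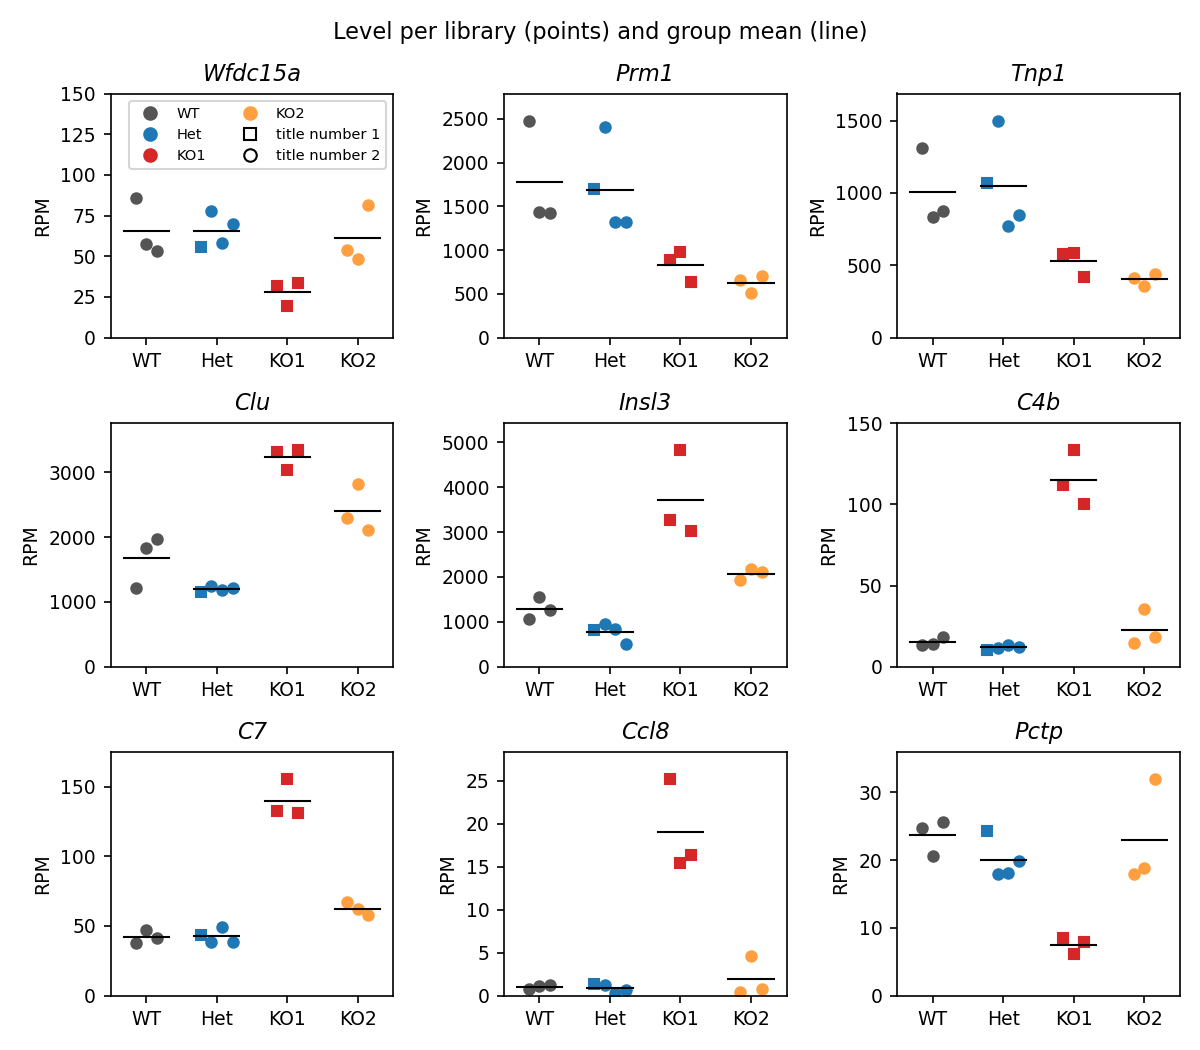
RPM of 9 genes in each library (points, vertical axes from 0) by group, with the group mean as a line and squares for title number 1. C4b, C7 and Ccl8 lie higher in the 3 KO1 libraries than in all 10 others, Pctp lies lower, and Prm1 and Tnp1 are low in both knockout groups.

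Of 27 chemokines and cytokines, 13 were high enough to test. Of these 13, 5 rose and none fell, with a median log2 difference of 0.25, and 2 rose with title number as a term. In KO2 2 rose and none fell, with a median of 0.31. Ccl8, a chemokine that draws monocytes, read 25.2, 15.4 and 16.4 RPM in KO1 against 0.275 to 1.39 RPM in controls. KO2 read 0.443, 4.55 and 0.803 RPM. Its log2 difference was 3.34 ± 0.30 (SE), adjusted p = 4.8e-06, and 3.03 (adjusted p = 0.0061) with title number as a term. Csf1, the growth factor of macrophages, read 3.92, 22.1 and 10.96 RPM against 0.505 to 4.13 RPM in controls, where KO1 replicate 1 overlapped the controls (log2 difference 1.90 ± 0.42 (SE), adjusted p = 0.0038). Cxcl12, a stromal chemokine, rose from 17.6 to 33.9 RPM (median 27.8) to 52.4, 47.7 and 47.9 RPM, and KO2 read 50.7, 53.9 and 56.01 RPM, so both knockout groups lay above the controls. The inflammatory cytokine Il1b read 0.14, 4.22 and 0.164 RPM against 0 to 1.82 RPM in controls and did not pass the test.

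Macrophage genes rose together. Of 23 tested markers, 17 rose and 1 fell, with a median log2 difference of 1.40, and 9 rose with title number as a term. In KO2, 5 rose and 1 fell, with a median of 0.66. In RNA of a whole organ, more cells of a type and more RNA in each cell cannot be told apart, and this holds for every cell type list below. Cd74, the chaperone of class II antigen presentation, read 30.7, 89.6 and 36.1 RPM in KO1 against 6.02 to 9.24 RPM (median 7.92) in controls. KO1 replicate 2 was the highest library, and the KO2 libraries spread from 4.43 to 41.9 RPM, across the control range and up to KO1. The log2 difference between KO1 and controls was 2.41 ± 0.27 (SE), adjusted p = 1.7e-05. Lyz2, the macrophage lysozyme, read 68.9, 112 and 85.2 RPM against 21.6 to 42.1 RPM (median 25.1), a log2 difference of 1.66 ± 0.21 (SE), adjusted p = 4.5e-05. Csf1r, the receptor of Csf1, read 48.1, 50.6 and 40.7 RPM against 13.2 to 26.2 RPM (median 20.9).

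Cd163, a scavenger receptor of resident macrophages, read 9.11, 7.95 and 8.51 RPM against 0 to 3.41 RPM in controls and 2.66, 2.58 and 1.49 RPM in KO2. Trem2, a lipid receptor of macrophages, read 13.6, 4.97 and 4.25 RPM against 0 to 2.66 RPM. Aif1 and Cx3cr1 did not follow the other markers. Aif1 fell from 359 to 405 RPM (median 379) to 279, 285 and 238 RPM (log2 difference -0.52 ± 0.08 (SE), adjusted p = 0.00032), and Cx3cr1 read 798, 764 and 898 RPM against 734 to 907 RPM (median 878), with a log2 difference of -0.03 that did not pass the test. These 2 genes hold most of the summed RPM of the list, which was 1452 to 1628 RPM in KO1 and 1258 to 1475 RPM in controls.

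Several defining markers of other leukocytes had no read. Cd8a and Nkg7 of T and NK lymphocytes had no read in any of the 10 libraries, nor had the neutrophil and mast cell genes S100a8, Ly6g, Ngp, Cma1, Mcpt4 and Ms4a2. Other members of the neutrophil and mast cell list did have reads. Cpa3 averaged 2.11 RPM in controls and 0.889 RPM in KO1 and did not pass the test. Mpo averaged 0.973 and 0.371 RPM and lay below the filter. Of 5 tested T and NK genes none rose and 1 fell, which was Cd3d (7.01, 12.2 and 6.22 RPM against 12.9 to 19.7 RPM). Cd3d did not pass with WT controls only, without KO1 replicate 3 or with title number as a term. Neither of the 2 tested B lymphocyte genes passed. The summed level was 26.003 to 39.4 RPM in controls and 21.1 to 24.4 RPM in KO1 for the T and NK list, and 102 to 139.5 RPM and 89.5 to 109 RPM for the B lymphocyte list.

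Genes of interferon response and antigen presentation rose in part. Of 29 interferon response genes in the data, 18 were high enough to test. Ifit1, Ifit2, Ifit3, Isg15, Oas1a, Oas2, Rsad2, Mx2, Ifi44, Rtp4 and Usp18 lay below the filter. Of the 18, 7 rose and none fell, with a median of 0.75, and 2 rose with title number as a term. In KO2 3 rose and none fell, with a median of 0.70. Ifitm3, which blocks viral entry, read 9.39, 14.8 and 9.81 RPM in KO1 against 2.52 to 5.77 RPM (median 3.24) in controls (log2 difference 1.41 ± 0.29 (SE), adjusted p = 0.002). All 3 KO1 values lay above all controls.

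In the list of class I antigen presentation 5 of 15 rose and none fell, or 6 and none with title number as a term. In KO2 9 of the 15 rose and none fell, with a median log2 difference of 0.93 against 0.47 in KO1. B2m, the light chain of class I molecules, read 81.7, 107 and 81.8 RPM against 23.1 to 39.7 RPM (median 34.97), a log2 difference of 1.41 ± 0.16 (SE), adjusted p = 2.2e-05. The heavy chain H2-K1 did not rise with it. It read 32.4, 40.1 and 41.4 RPM in KO1, 19.1 RPM in Het replicate 1, between 50.03 and 98.4 RPM in the other controls, and 147, 186 and 149.8 RPM in KO2. The log2 difference from controls was -0.75 ± 0.34 (SE) and missed the threshold (adjusted p = 0.13), whereas with title number as a term its sign turned to 0.95 (adjusted p = 0.047). Without Het replicate 1 it was -1.03 (adjusted p = 0.00078), so that library decides the call. Psmb9, a subunit of the immunoproteasome, was also low in the libraries of title number 1 and high in KO2, with 1.96, 2.86 and 2.29 RPM in KO1, 2.27 RPM in Het replicate 1 and 8.42, 12.8 and 15.4 RPM in KO2. Reads of Psmb9 may include those of an overlapping gene.

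In the list of TNF and NF-kB response genes 7 of 19 rose and none fell, with 4 rises under median-of-ratios scaling and also 4 with title number as a term. In KO2 6 of the 19 rose and none fell, with a median log2 difference of 0.69 against 0.62 in KO1, so the list as a whole was not particular to KO1. Vcam1, an adhesion molecule that TNF induces, read 452, 498 and 501 RPM in KO1 against 52.1 to 169 RPM (median 108) in controls. The KO2 libraries read 133, 202 and 183 RPM and overlapped the controls. The log2 difference between KO1 and controls was 2.22 ± 0.28 (SE), adjusted p = 4.5e-05. Both TNF receptors rose, Tnfrsf1a from 11.6 to 21.4 RPM (median 12.7) to 36.99, 32.2 and 39.9 RPM. Tnfrsf1b read 13.5, 10.2 and 7.03 RPM against 1.101 to 3.87 RPM. Ripk3, the kinase of necroptosis, read 14.7, 21.2 and 11.9 RPM against 3.06 to 7.56 RPM (median 4.15), a log2 difference of 1.60 ± 0.27 (SE), adjusted p = 0.00052.

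Sertoli cell genes rose. Of 30 tested markers 19 rose and none fell, with a median log2 difference of 0.86, and 16 rose with title number as a term. In KO2 10 rose and none fell, with a median of 0.61. Het replicate 1, on which the fit with title number rests, had the lowest mean log2 level of the controls for this list. It lay at -0.269 from the control mean, and the highest control at 0.29. It was also the lowest control for the Leydig (-0.297), stroma (-0.48) and lysosome (-0.205) lists, but not for complement or macrophages (-0.087 in both). Rises kept in that fit are thus set against a low control in those 4 lists. Gata1, a transcription factor of Sertoli cells, read 29.6, 31.2 and 37.8 RPM in KO1 against 8.09 to 13.02 RPM (median 10.6) in controls, a log2 difference of 1.52 ± 0.20 (SE), adjusted p = 5.9e-05. Sox9, the factor that sets Sertoli cell fate, read 27.2, 25.4 and 24.9 RPM against 7.297 to 17.4 RPM (median 10.8). Cldn11, a claudin of the blood-testis barrier, read 158, 149 and 160.0 RPM against 52.6 to 90.1 RPM (median 61.1) (log2 difference 1.22 ± 0.15 (SE), adjusted p = 4.5e-05). None of these 3 genes overlapped between the groups.

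Of 20 tested genes in the blood-testis barrier list, 10 rose and 1 fell, with a median of 0.55, and 7 rose and none fell with title number as a term. In KO2 9 rose and 1 fell, with a median of 0.58. Cgn, the tight junction protein cingulin, read 43.4, 46.2 and 57.2 RPM in KO1 against 12.9 to 23.1 RPM (median 17.9) in controls. Inha, the inhibin subunit that Sertoli cells secrete, read 227, 284 and 339 RPM against 89.3 to 153 RPM (median 127), with a log2 difference of 1.22 ± 0.16 (SE), adjusted p = 6.3e-05. Follicle-stimulating hormone receptor, Fshr, read 7.71, 6.46 and 15.2 RPM against 3.85 to 6.47 RPM (median 5.302) and did not pass the test.

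Leydig cell genes rose as well, 14 of 20 tested, with 1 fall and a median of 0.95, and 12 rose and none fell with title number as a term. In KO2 the numbers were also 14 and 1, with a median of 0.87. Insl3, the peptide hormone of testis descent, read 3258, 4837 and 3017 RPM in KO1, 499.6 to 1549.6 RPM (median 952) in controls and 1941, 2171 and 2108 RPM in KO2. Its log2 difference from controls was 1.94 ± 0.23 (SE), adjusted p = 3e-05. Hsd17b3, the last enzyme of testosterone synthesis, read 90.8, 140.3 and 107 RPM against 19.1 to 45.7 RPM (median 22.9), a log2 difference of 1.99 ± 0.23 (SE), adjusted p = 2.3e-05. Cyp17a1, which makes androgen precursors, rose from 923 to 1515 RPM (median 1182) to 2195, 3026 and 2417 RPM. The 1 gene of the list that fell was Cyp2a12 (5.18, 5.09 and 3.93 RPM against 7.56 to 14.1 RPM), which did not pass with WT controls only, without KO1 replicate 3 or with title number as a term. The Het mean lay below the WT mean for Insl3 and Clu in the plot of single genes, and against WT alone the log2 differences were 1.51 and 0.98.

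In the list of stroma and matrix 11 of 26 genes rose and 2 fell, with a median of 0.73, and 8 rose and none fell with title number as a term. Sparc, a matrix glycoprotein, read 906, 1137 and 1018 RPM in KO1 against 269 to 565 RPM (median 353) in controls (log2 difference 1.43 ± 0.18 (SE), adjusted p = 4.5e-05). Col3a1, a fibrillar collagen, read 43.6, 68.97 and 51.9 RPM against 12.5 to 27.6 RPM (median 15.01). The 2 falls were Postn (5.04, 10.8 and 8.996 RPM against 11.3 to 20.9 RPM) and Mfap5 (1.54, 1.49 and 2.29 RPM against 1.12 to 15.5 RPM (median 8.63)). In Mfap5 WT replicate 3 lay below KO1 and Het replicate 1 (2.27 RPM) within it, and the call was lost in 15 of 26 alternatives. Postn lost its call in 5, among them those without KO1 replicates 1 and 3.

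Endothelial genes rose in 8 of 18 cases and fell in none, and 3 rose with title number as a term. Kdr, the main receptor of vascular endothelial growth factor, read 18.5, 11.7 and 20.1 RPM in KO1 against 0.688 to 7.79 RPM (median 2.799) in controls, a log2 difference of 2.13 ± 0.45 (SE), adjusted p = 0.0025. Pecam1, which marks all endothelium, read 0.701, 3.85 and 3.44 RPM against 0.126 to 5.46 RPM and did not pass. Of 16 tested genes of peritubular myoid cells, the contractile cells around the tubules, 2 rose and 1 fell, shares near those of all genes. Myl9 rose from 45.1 to 70.97 RPM (median 50.8) to 78.2, 103 and 79.005 RPM, and Actg2, a smooth muscle actin, fell from 251 to 295 RPM (median 258) to 188, 179 and 141 RPM. Actg2 read far higher than the actin Acta2, which averaged 50.2 RPM in controls and 75.5 RPM in KO1 and did not pass. Whether the reads of Actg2 come from myoid cells was not tested.

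Markers of neighbouring tissues gave no common direction. Of the epididymal genes, Lcn5, Lcn8, Lcn9 and Rnase9 had no read in the 10 libraries, and of 6 tested 2 rose and 1 fell, none of them with title number as a term. In the rete testis list, 2 of 5 rose and 1 fell, or 1 and none with title number as a term. The rises include Lcn2, a secreted iron carrier that inflammation induces, at 2243, 3007 and 2008 RPM in KO1 against 335 to 1012 RPM (median 531) in controls (log2 difference 2.13 ± 0.27 (SE), adjusted p = 4.5e-05). KO2 read 1166, 1877 and 1738 RPM, above all controls too.

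**Figure D3:**
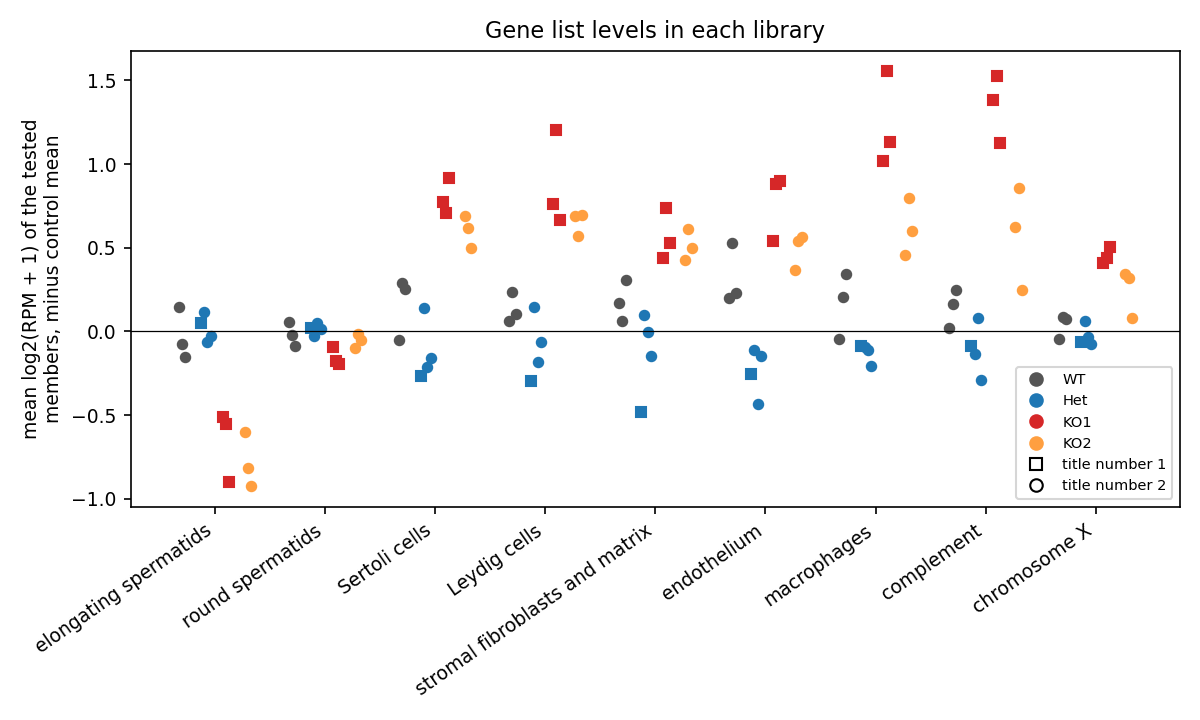
Mean log2(RPM + 1) over the tested members of 9 gene groups in each library (vertical axis), less the control mean, with 1 point for each library, coloured by group and with squares for title number 1. KO1 and KO2 both lie below the controls for elongating spermatids, and the 3 KO1 libraries lie above all others for complement and macrophages.

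Under RPM scaling, germ cell genes moved mainly at the last stage. Of 31 tested genes of elongating spermatids, 24 fell and none rose, with a median log2 difference of -0.77; 17 fell with title number as a term, and 27 with median-of-ratios scaling. The summed level of the list was 14497 to 19218 RPM in KO1 and 26620.0 to 32593 RPM in controls, with 30449 RPM in Het replicate 1. In KO2, 23 of the 31 fell and none rose, with a median of -0.90. None of the 31 differed between KO1 and KO2.

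Spata3, a testis protein gene with the lowest adjusted p of the list, read 294, 293 and 217 RPM in KO1 against 488 to 615 RPM (median 553) in controls, a log2 difference of -1.05 ± 0.10 (SE), adjusted p = 6.7e-06. Oaz3, the spermatid antizyme that limits polyamines, read 1486, 1334 and 963 RPM against 2364 to 2821 RPM (median 2634) and 1311, 1179 and 905 RPM in KO2. Its log2 difference from controls was -1.05 ± 0.10 (SE), adjusted p = 6.7e-06. KO1 and KO2 lay below all controls for both genes. Spem1, needed to strip cytoplasm from the sperm head, fell from 298 to 362 RPM (median 310.4) to 186, 167 and 127 RPM.

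The DNA-packing proteins, named here for their textbook role after their values were seen, fell too. Prm1, a protamine, read 887, 982 and 637 RPM in KO1 against 1317 to 2479.8 RPM (median 1441) in controls (log2 difference -1.02 ± 0.18 (SE), adjusted p = 0.00076). Prm2, the other protamine, read 2902, 2632 and 1706 RPM against 4309 to 6235 RPM (median 4950.3). Tnp1, a transition protein, read 578, 588 and 422 RPM against 773 to 1499.8 RPM (median 874), and KO2 read 410.1, 359 and 438 RPM. No KO1 value of these 3 genes overlapped the controls.

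Promoters were searched for TGANNTCA, a loose form of the cAMP response element, which CREM, an activator of spermatid genes, is known to bind. To show the windows searched, the 150 bases before the RefSeq start (GRCm38.p6, the mm10 assembly) are printed for Wfdc15a (chr2:164200118-164200267, minus strand), Prm1 (chr16:10796824-10796973, minus strand), Tnp1 (chr1:73015900-73016049, minus strand) and Spata3 (chr1:86021795-86021944, plus strand), 5′ to 3′ on the strand of the gene, with the match to TGANNTCA in capitals.
Wfdc15a: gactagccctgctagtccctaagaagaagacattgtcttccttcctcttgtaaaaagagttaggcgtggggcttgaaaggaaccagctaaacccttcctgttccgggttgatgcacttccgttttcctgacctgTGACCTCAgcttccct
Prm1: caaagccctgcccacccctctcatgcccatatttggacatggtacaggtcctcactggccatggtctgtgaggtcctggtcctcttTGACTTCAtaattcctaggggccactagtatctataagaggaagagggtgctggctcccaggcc
Tnp1: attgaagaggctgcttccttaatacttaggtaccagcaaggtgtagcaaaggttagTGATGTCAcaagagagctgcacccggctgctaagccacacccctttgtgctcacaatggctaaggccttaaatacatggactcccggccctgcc
Spata3: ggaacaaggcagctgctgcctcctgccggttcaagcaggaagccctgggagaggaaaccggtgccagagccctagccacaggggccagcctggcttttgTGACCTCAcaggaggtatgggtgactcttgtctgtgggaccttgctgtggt
All 4 windows hold 1 match. The motif reads the same on both strands in its fixed letters, and both strands were searched. Among the 24 elongating spermatid genes that fell, 20 had a promoter in the RefSeq table and 10 of these held the motif. Prm1, Tnp1 and Spata3 are among these 10, so the printed windows do not show how common a match is. List members that did not fall were not counted, so the share does not tell falling members from the others. The motif was found in 943 of 10927 tested genes with a promoter (8.63%) and in 8.37% of all 32851 promoter windows. A match is a description of letters and shows no binding.

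Earlier germ cells showed few calls under RPM scaling, where 5.71% of all tested genes were lower. Round spermatids and spermatocytes had more falls with median-of-ratios scaling, where 10.7% of all tested genes were lower. Of 21 round spermatid genes 2 fell and none rose, or 11 and none with median-of-ratios scaling and 1 and none with title number as a term, and the median log2 difference was -0.17. Tssk2, a kinase of round and elongating spermatids, fell from 544 to 643 RPM (median 588) to 485, 378 and 320.3 RPM (log2 difference -0.58 ± 0.10 (SE), adjusted p = 0.00069). Of 21 genes of pachytene and diplotene spermatocytes 3 fell (6 with median-of-ratios scaling, 1 with title number as a term) and none rose. Pgk2, the germ cell phosphoglycerate kinase, fell from 966 to 1154 RPM (median 1034) to 811, 772 and 626 RPM. Of 21 early meiotic genes 1 rose and 2 fell. Dmc1, the recombinase of meiosis, was the rise, from 6.91 to 15.4 RPM (median 9.97) to 23.7, 20.3 and 28.8 RPM. None of these 3 early meiotic genes passed with title number as a term.

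Differentiating spermatogonia had 3 rises and 1 fall among 11 genes, or 2 and none with title number as a term. Kit, the stem cell factor receptor that marks them, read 98.4, 140.1 and 134 RPM in KO1 against 32.7 to 61.96 RPM (median 43.1) in controls, a log2 difference of 1.46 ± 0.19 (SE), adjusted p = 5.2e-05. Stra8, the retinoic acid target at meiotic entry, read 27.7, 25.5 and 43.02 RPM against 11.4 to 17.3 RPM (median 13.8). Kit is also made by Leydig cells, so its level is not that of spermatogonia alone. Of 13 undifferentiated spermatogonia genes none rose and 1 fell. Of 11 genes of the sperm tail axoneme 2 fell and none rose, or 5 and none with median-of-ratios scaling. In neither list did a gene pass with title number as a term.

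**Figure D4:**
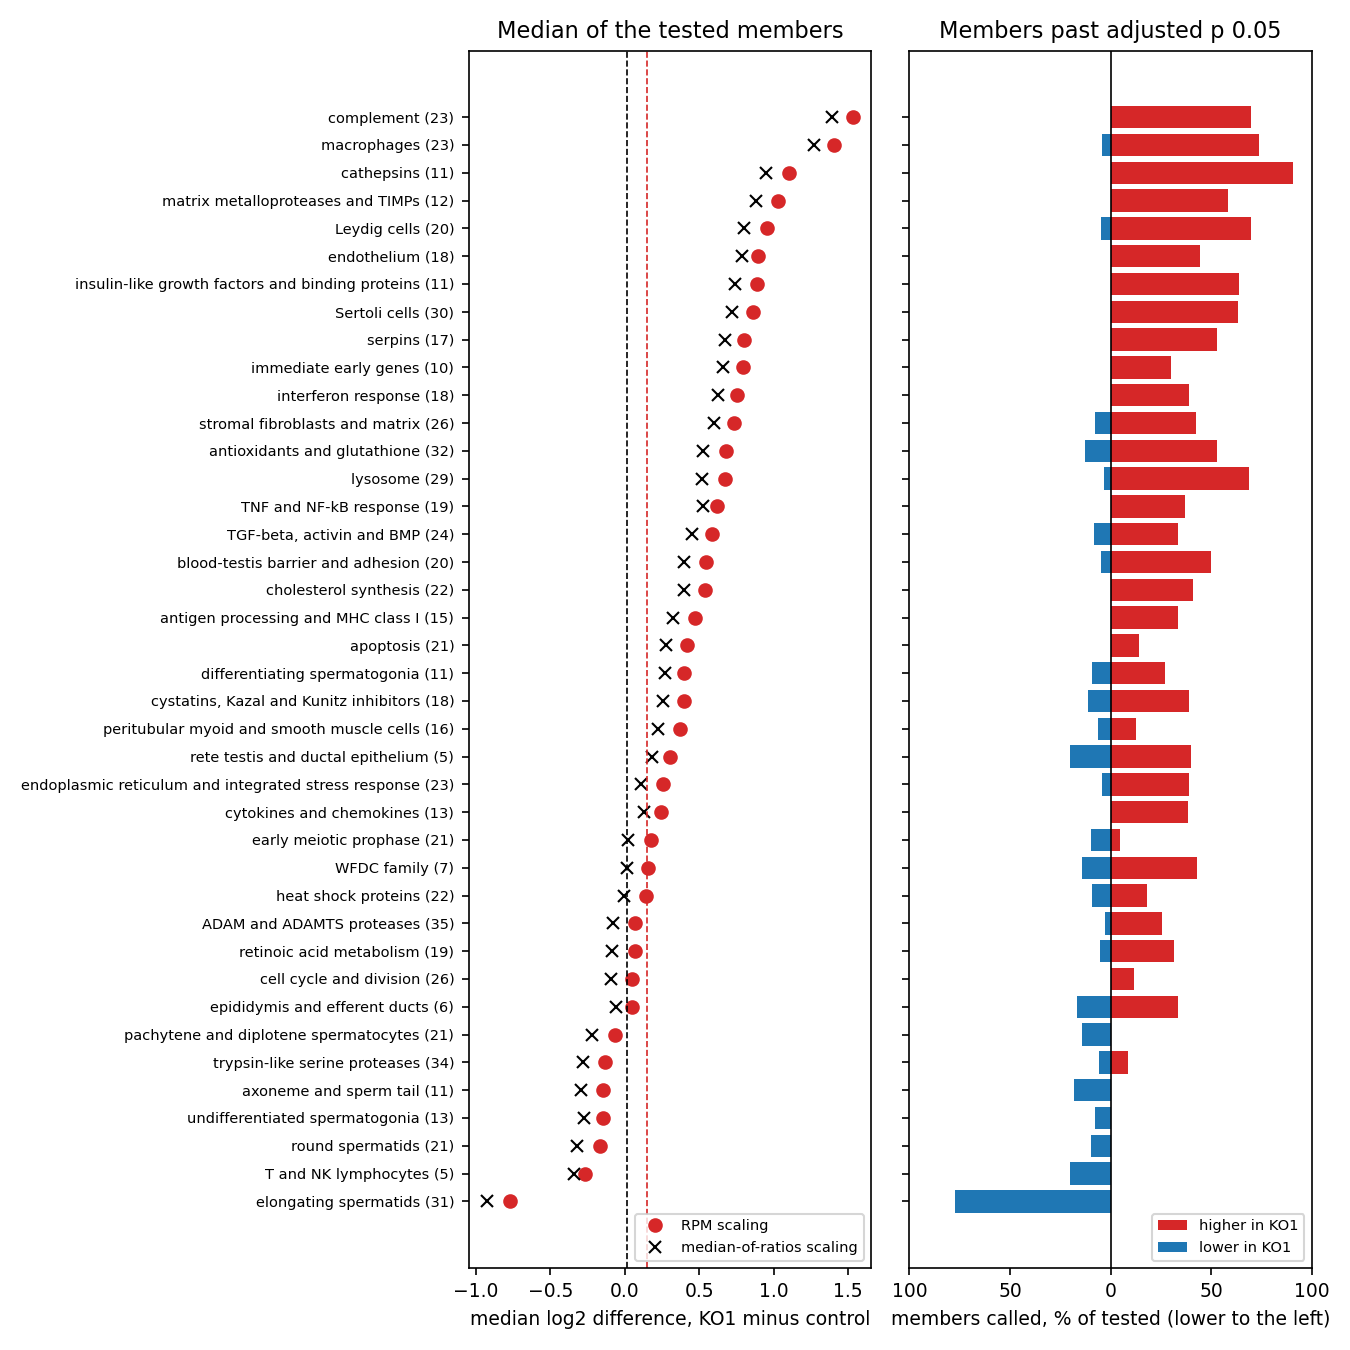
Gene lists with 5 or more tested members, which are numbered in brackets. The left panel gives the median log2 difference (KO1 minus control) under RPM and median-of-ratios scaling, with dashed lines at the medians of all genes (0.15 and 0.01), and the right panel the share of tested members called higher (right of 0) or lower (left of 0) under RPM scaling; elongating spermatids fell (24 of 31) and complement rose (16 of 23).

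Proteases were taken by family because the protein of interest resembles protease inhibitors. Lysosomal cathepsins had the largest share of rises among the lists: 10 of 11 tested rose and none fell, with a median of 1.10, and 7 rose with title number as a term. In KO2 7 rose and none fell. Ctsl, a cysteine protease that Sertoli cells secrete, read 758, 622 and 760.3 RPM in KO1 against 280.1 to 559 RPM (median 352) in controls. Ctsd, an aspartic protease, read 297, 304 and 254 RPM against 113 to 202 RPM (median 145) and 295, 319 and 244 RPM in KO2. Its log2 difference from controls was 0.94 ± 0.15 (SE), adjusted p = 0.00028. Ctss, a cathepsin of macrophages, read 13.3, 24.5 and 20.9 RPM against 3.66 to 9.52 RPM (median 4.82). The exception was Ctsk, at 0.42, 2.24 and 3.44 RPM against 0 to 2.41 RPM, which did not pass.

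The trypsin-like serine proteases, many of them germ cell proteins, had no common direction. Of 34 tested 3 rose and 2 fell (3 and 7 with median-of-ratios scaling, 5 and 1 with title number as a term), and the median was -0.13. Prss35 read 51.6, 81.8 and 74.8 RPM in KO1 against 13.1 to 18.9 RPM (median 13.98) in controls, with a log2 difference of 2.10 ± 0.18 (SE), adjusted p = 3.7e-06. Htra1, a secreted protease of the matrix, rose from 11.4 to 41.6 RPM (median 21.7) to 61.7, 67.97 and 62.8 RPM. Plat, the tissue plasminogen activator, read 56.5, 40.3 and 61.3 RPM against 8.42 to 34.2 RPM (median 16.8). The falls were the testis proteases Prss58 (105, 98.7 and 64.4 RPM against 118 to 149 RPM) and Prss55 (91.9, 87.9 and 63.96 RPM against 94.6 to 119 RPM). Prss55 lost its call in 12 of 26 alternatives, among them WT controls only, Het controls only, the replicate block and the fit without KO1 replicate 3.

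Of 12 tested matrix metalloproteases and their TIMP inhibitors, 7 rose and none fell, or 4 and none with title number as a term. Timp1, the inhibitor with the largest log2 difference of all named genes, read 28.2, 36.2 and 35.7 RPM in KO1 and 11.7, 30.2 and 18.2 RPM in KO2. Its controls ran from 0.551 to 9.93 RPM (median 0.674), where WT replicates 2 and 3 (9.93 and 6.86 RPM) stood above the other 5. The log2 difference was 3.64 ± 0.54 (SE), adjusted p = 0.00016. Timp1 overlaps Syn1, which shows nearly the same values (29.6, 36.9 and 36.3 RPM), and their reads cannot be told apart. Of 35 ADAM and ADAMTS proteases 9 rose and 1 fell, or 7 and 4 with median-of-ratios scaling and 2 and none with title number as a term. Adam10, a sheddase of many membrane proteins, rose from 18.01 to 30.5 RPM (median 21.9) to 63.9, 48.1 and 48.3 RPM.

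Protease inhibitors rose in part. Of 17 tested serpins 9 rose and none fell, with a median of 0.80, against 2 and none in KO2, and 7 rose with title number as a term. Serpina5, the protein C inhibitor, read 439, 441 and 519.7 RPM in KO1 against 104 to 239 RPM (median 132) in controls, a log2 difference of 1.65 ± 0.19 (SE), adjusted p = 2.4e-05. Serpina3n, an acute phase inhibitor, read 42.7, 54.7 and 44.5 RPM against 4.67 to 28.3 RPM (median 8.196), and 19.3, 53.4 and 20.8 RPM in KO2. Of 18 cystatins and Kazal or Kunitz inhibitors 7 rose and 2 fell, or 3 and none with title number as a term. Cst3, the common inhibitor of cathepsins, rose from 130.4 to 225 RPM (median 155) to 319, 332 and 282 RPM. Cst13 fell from 155 to 186 RPM (median 162) to 131, 118 and 125 RPM.

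In the WFDC family itself 7 of 23 genes passed the filter, Wfdc15a among them. Of the others 3 rose and none fell, and 1 rose with title number as a term. Wfdc1, a stromal protein, read 34.8, 46.97 and 63.5 RPM against 12.5 to 23.5 RPM (median 18.9) (log2 difference 1.30 ± 0.20 (SE), adjusted p = 0.00026). Wfdc10 read 34.6, 36.5 and 39.3 RPM against 6.47 to 27.7 RPM (median 16.2), and Wfdc9, which overlaps another gene, 10.9, 11.3 and 10.6 RPM against 2.62 to 7.73 RPM (median 4.88). Wfdc9 lost its call in 7 of 26 alternatives, among them those without any 1 KO1 library. Within 2 Mb of Wfdc15a, 62 genes were tested. Of these 17 rose (27.4%) and 1 fell (1.61%), or 19.4% and 11.3% with median-of-ratios scaling. Over all tested genes the shares were 16.5% and 5.71%, or 11.0% and 10.7% with that scaling, and on chromosome 2 they were 16.2% and 6.01%. The median log2 difference of the 62 genes was 0.10, against 0.12 on chromosome 2. In KO2 12.9% of them rose and 1.61% fell, against 7.24% and 4.69% of all genes.

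Among the other large rises, Pdpn, podoplanin of lymphatic vessels and stroma, read 11.8, 11.7 and 15.4 RPM in KO1 against 0 to 4.17 RPM in controls, and the highest control was Het replicate 1. Ramp1, a partner of the calcitonin receptor-like receptor, read 26.1, 17.8 and 27.2 RPM against 0.551 to 4.69 RPM (median 3.15). Col18a1, a collagen of basement membranes, read 60.8, 65.2 and 115 RPM against 7.45 to 18.4 RPM (median 12.6), with a log2 difference of 2.62 ± 0.25 (SE), adjusted p = 5.3e-06. Lrg1, a secreted glycoprotein of inflammation, read 70.8, 99.5 and 52.997 RPM against 3.37 to 38.6 RPM (median 9.01), and 25.04, 106 and 79.9 RPM in KO2, which overlapped KO1. Cnn3, a calponin, rose from 3.24 to 19.6 RPM (median 6.91) to 50.3, 63.999 and 67.1 RPM.

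Among the largest falls, Oprd1, the delta opioid receptor, read 1.96, 0 and 8.67 RPM in KO1 against 9.26 to 18.3 RPM (median 16.7) in controls, with a log2 difference of -2.38 ± 0.45 (SE), adjusted p = 0.0011. KO2 read 14.4, 11.99 and 15.6 RPM and overlapped the controls. Habp4, an RNA-binding protein, read 44.4, 52.2 and 42.5 RPM against 97.6 to 158 RPM (median 145), with a log2 difference of -1.53 ± 0.14 (SE), adjusted p = 5.3e-06. Tppp2, a sperm tail protein, read 37.97, 21.7 and 21.6 RPM against 61.7 to 93.4 RPM (median 68.8), and 28.8, 27.02 and 20.8 RPM in KO2, so it was low in both knockout groups. Olfr733, an olfactory receptor, also read low in both (2.802, 2.86 and 0.654 RPM in KO1, 1.33, 1.06 and 0.918 RPM in KO2, 5.499 to 10.2 RPM in controls).

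KO1 was then compared with KO2 directly, in a fit of all 13 libraries. Of 16235 genes 16 were higher in KO1 (0.0986%) and 13 lower (0.0801%), and in 22 of these 29 genes the KO1 values lay beyond all 10 other libraries. Leaving out 1 knockout library gave 8 to 12 higher and 1 to 17 lower genes, so these counts rest on few libraries. Het replicate 1 lay beyond the other 6 controls on the side of KO1 in 16 of the 29 genes, within them in 11 and on the opposite side in 2, C4b and Defb33. Wfdc15a, which the choice of the libraries used, is 1 of the 13 lower genes. Of the genes named here, C4b, C7 and Ccl8 lost the call against KO2 only with the replicate block. Pctp lost it in 3 of 15 alternatives, Tsc22d1 in 4, Serping1 and Defb33 in 6, Psmb9 in 8, H2-K1 and Nmur1 in 9 and Klk1b16 in 10, and Afap1l2 and Gdf9 in 8 of 14. The replicate block is counted for each of these genes. No other library shares the numbers of KO2 replicates 5 and 6. With the block KO2 therefore rests on replicate 4 alone, and that fit cannot decide these calls. Defb33, a defensin, read 21.3, 19.4 and 14.6 RPM in KO1, 26.02 to 37.7 RPM in controls and 6.87, 8.35 and 7.58 RPM in KO2.

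The genes in which Het replicate 1 stayed within the other controls include C7 and Afap1l2. Afap1l2, an actin-associated adaptor, read 11.2, 14.3 and 9.32 RPM in KO1, 0.506 to 5.23 RPM in controls and 0.443, 1.06 and 2.52 RPM in KO2. It exceeded controls by a log2 difference of 1.98 ± 0.38 (SE), adjusted p = 0.0011, and KO2 by 2.51 ± 0.46 (SE), adjusted p = 0.024. The difference from KO2 did not pass in limma-voom or without any 1 of the KO1 libraries. KO2 lay among or next to the controls.

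In other genes Het replicate 1 lay on the side of KO1 beyond the other controls. Gdf9, an oocyte growth factor, read 5.88, 3.48 and 11.6 RPM in KO1 and 4.92 RPM in Het replicate 1, but no more than 1.54 RPM in the 6 other controls and 0, 0 and 0.115 RPM in KO2. Klk1b16, a kallikrein, read 1.54, 1.49 and 1.31 RPM in KO1 and 0.631 RPM in Het replicate 1, against 2.55 to 13.5 RPM in the 6 other controls and 22.8, 9.72 and 14.9 RPM in KO2.

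Nmur1, a neuromedin receptor, was low in KO1 (1.54, 0.249 and 0.654 RPM) against 3.53 to 16.1 RPM in controls, of which Het replicate 1 was the lowest, and 8.198, 4.55 and 8.49 RPM in KO2. Tsc22d1, a transcriptional regulator, read 49.04, 52.6 and 36.3 RPM in KO1, 77.6 to 262 RPM (median 123) in controls and 128, 225 and 167 RPM in KO2. Pctp, a phosphatidylcholine transfer protein, read 8.55, 6.09 and 7.85 RPM in KO1, 17.9 to 25.6 RPM in controls and 17.9, 18.8 and 32.02 RPM in KO2. The log2 difference between KO1 and KO2 was -1.46 ± 0.24 (SE), adjusted p = 0.011, and Het replicate 1 (24.4 RPM) lay among the controls.

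**Figure D5:**
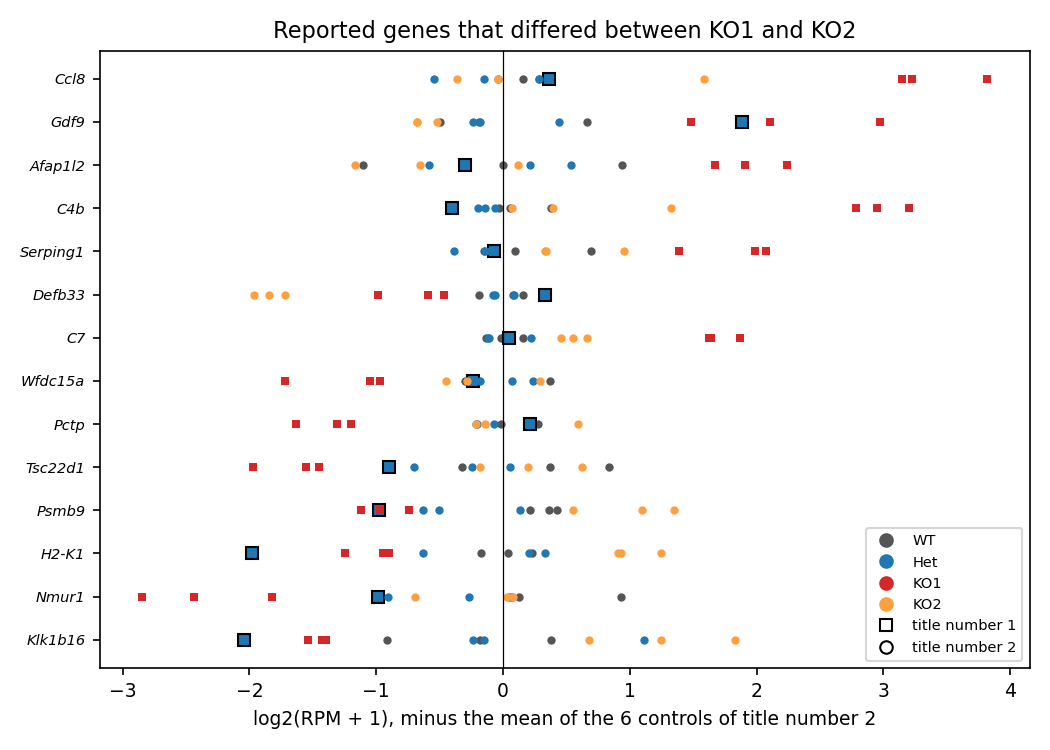
The 14 reported genes of the 29 that differed between KO1 and KO2 (rows), with log2(RPM + 1) in each library less the mean of the 6 controls of title number 2 (horizontal axis), coloured by group and with squares for title number 1. The outlined square is Het replicate 1, which lies on the side of KO1 beyond the other controls in 7 of the 14 genes.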

How the data were processed

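The authors deposited 1 table of log2 RPM values for 25965 genes in 13 libraries. Per the submitters' processing notes, reads went through FastQC 0.11.8 and Trim Galore 0.6.6 and the build was mm10. The sources used here give no aligner, counting program or strand. The lowest value of each library equals 0.9 read and was set to 0. Of the higher values, no library had less than 99.964% that came out as whole reads within 0.01 read. Of the listed genes, 28.8% overlap another, so their reads may be shared. PCR copies carry no molecular identifiers.

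Groups were taken from the labels. A limma 3.58.1 linear model with mean-variance trend (R 4.3.3) was fitted to log2(RPM + 1) for the 16235 genes that averaged 1 RPM or more over the 13 libraries, with 3 KO1 and 7 control libraries. KO1 was compared with KO2 in a fit of 3 groups over all 13 libraries. All p-values are two-sided, with Benjamini-Hochberg adjustment over all tested genes and a threshold of 0.05. Log2 differences are given ± SE and refer to RPM + 1, which understates changes of low genes. On simulated counts of 15994 genes the fit of KO1 against controls found 64% of 2-fold and 94% of 3-fold changes, with 7.2% of calls false. There 50 genes changed at each of 1.5-, 2-, 3- and 4-fold, with no difference between title numbers and no common shift of the other genes. Far more genes were called in the data, so the false share does not describe those calls. Alternatives changed the scaling, pseudocount (0.5 and 5), filter, model, controls and libraries; title number as a term, and leaving out WT replicates 2 and 3, were added after the data had been seen.

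The members, the 44 gene lists (944 genes, 738 tested) and the tests were chosen with earlier results of these data known. Lists are described by counts and medians, without a test. Genes were named by a rule: the 15 largest rises and falls with no overlap of KO1 and control values, up to 4 called members of each list in each direction by adjusted p, the 2 highest members of a cell type list without calls, and the 5 largest differences from KO2 in each direction. Not all genes that meet it are reported. C4a, Cd55, Cd59a, Cd59b, Cd163, Trem2, Cx3cr1, Il1b, Sox9, Fshr, Pecam1, Prm1, Prm2, Tnp1, Ctsl, Ctss, Ctsk and Defb33 fall outside the rule and were chosen after their values were seen. Promoter sequences are those of RefSeq on GRCm38.p6.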

Additional observations from a re-analysis of the deposited data

Results flagged for a closer look

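Differences between KO1 and KO2 passed the threshold for 13 of the genes reported (log2 difference, KO1 minus KO2). KO1 was higher for Ccl8 (3.00), Gdf9 (2.82), Afap1l2 (2.51), C4b (2.38), Serping1 (1.28), Defb33 (1.16) and C7 (1.15). It was lower for Klk1b16 (-2.71), Nmur1 (-2.18), H2-K1 (-2.06), Psmb9 (-1.94), Tsc22d1 (-1.87) and Pctp (-1.46).

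One control stood apart from the other 6 in 5 of the 104 genes reported, and chance alone flags about 1 in 20. Het replicate 1 was the highest control for Gdf9 (4.92 RPM) and Pdpn (4.17 RPM; 0.809 RPM at most in the others). For both genes it lay on the side of KO1. WT replicate 3 was the highest for Myl9 (71.0 RPM), Nmur1 (16.1 RPM) and Serping1 (51.1 RPM). Of these, Myl9 and Serping1 were higher in KO1 than in every control.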

How the results depend on the processing

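Of 92 genes reported as called against controls beside Wfdc15a, 59 stayed called in all settings and none changed sign. With title number as a term 24 lost the call, and 30 with Het replicate 1 as the only control. Against controls, higher and lower genes numbered 1779 and 1738 with median-of-ratios scaling, 1446 and 1588 with quantile normalization, 1261 and 530 with WT controls only, 887 and 136 with title number 1 only, where the single control is assumed to vary like KO1, and 1010 and 190 with title number as a term. Leaving out 1 library gave 1602 to 2724 and 579 to 942.

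KO1 against KO2 gave 30 and 39 genes with quantile normalization, 42 and 26 with a pseudocount of 5, and 76 and 44 in a fit of only the 6 KO libraries. Lower genes numbered 4 without a filter and 6 in limma-voom, and single libraries left out gave 8 to 12 and 1 to 17. Replicate numbers did not pair the control and KO1 libraries. After the group mean of each gene was subtracted, the remaining deviations of same-numbered libraries correlated at -0.083 to 0.045. Not every library correlated best with its own number. With the replicate block, limma called 2425 and 837 genes against controls, and 0 and 0 against KO2, where 923 had an unadjusted p under 0.05 and limma-voom without the block called 17 and 6.

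Signs changed for genes that were not called. With title number 1 only and with title number as a term the log2 difference was 0.95 for H2-K1, 0.58 for Klk1b16 and 0.034 for Psmb9. The 3 genes passed as falls without Het replicate 1 (adjusted p = 0.00078, 0.0099 and 0.042 in limma) and with quantile normalization (0.049, 0.045 and 0.028), and H2-K1 and Psmb9 also with WT controls only (0.0024 and 0.028). Cx3cr1 moved to 0.11 with quantile normalization, and without single libraries ranged from -0.097 to 0.020 (the latter without KO1 replicate 2). Without single libraries Il1b ranged from -0.54 (without KO1 replicate 2) to 0.56, and Pecam1 from -0.12 (without the same replicate) to 0.64. Pecam1 also moved to -0.056 with quantile normalization, -0.56 with WT controls only, -0.076 with title number 2 controls only and -0.0062 with the replicate block. The causes were not tested.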

Other observations

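Lysosomal genes rose beyond the cathepsins. Of 29 tested, 20 rose and 1 fell, with a median log2 difference of 0.67; 14 rose with median-of-ratios scaling and 13 with title number as a term. Grn, the progranulin that supports lysosomes, read 121, 127 and 111 RPM in KO1 against 27.3 to 67.5 RPM (median 45.4) in controls, a log2 difference of 1.36 ± 0.21 (SE), adjusted p = 0.0002. Of 11 tested insulin-like growth factor genes 7 rose and none fell, of which 1 rose with title number as a term. Igfbp4, a binding protein, read 25.9, 31.1 and 26.01 RPM against 4.21 to 9.53 RPM (median 7.99), and 9.75, 13.1 and 12.9 RPM in KO2.

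Of 19 tested retinoic acid genes 6 rose and 1 fell, or 2 and none with title number as a term. Over all tested genes 16.5% rose and 5.71% fell, or 6.22% and 1.17% with that term, so the 1 fall is near the share of all genes. Cyp26b1, which breaks retinoic acid down, read 16.1, 25.1 and 24.2 RPM in KO1 against 4.96 to 9.72 RPM (median 6.299) in controls, a log2 difference of 1.49 ± 0.24 (SE), adjusted p = 0.00035; it did not pass with title number as a term (adjusted p = 0.23). Of 32 antioxidant genes 17 rose and 4 fell, or 11 and 1 with title number as a term. Prdx2, a peroxiredoxin, rose from 60.5 to 91.96 RPM (median 66.1) to 134, 174 and 136 RPM, whereas Gpx4, the peroxidase built into the sperm midpiece, fell from 523 to 709 RPM (median 612) to 514, 495 and 391 RPM, a call lost in 5 of 26 alternatives. In the TGF-beta list 8 of 24 rose and 2 fell, or 2 and 2 with title number as a term. The falls were the germ cell ligands Bmp8b (97.7, 97.6 and 72.95 RPM against 168 to 196 RPM) and Bmp8a, 2 close copies whose reads the counting may have split.

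Genes on the X chromosome were higher in KO1 more often than others. Of 601 tested, 29.0% rose against 16.0% of the 15623 autosomal genes, where single autosomes ranged from 13.9% to 18.3%. The median log2 difference was 0.45 on the X chromosome and 0.14 on autosomes. With median-of-ratios scaling the shares were 21.5% and 10.5%, with title number as a term 12.3% and 5.98%, and in KO2 11.3% and 7.08%. Genes are not independent replicates, so no test is given. The direction of calls also followed the level: of 61 genes with a control mean of at least 1000 RPM, 31 fell and 3 rose, whereas of 4817 genes between 5 and 20 RPM, 120 fell and 1027 rose (2.49% and 21.3%). In the latter class 8.64% fell and 8.51% rose with quantile normalization, so its direction depended on the scaling. The share of these differences that belongs to cell composition was not tested.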
